A study of Mus musculus with 18 samples.

Results

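This account covers 9 genes whose products write, read or erase repressive marks on histone H3 in mouse bone marrow derived macrophages (BMDMs). They are the 7 chromobox genes Cbx1, Cbx2, Cbx3, Cbx5, Cbx6, Cbx7 and Cbx8, the H3K27 methyltransferase gene Ezh2 and the H3K27 demethylase gene Kdm6b, found by matching their symbols to Ensembl IDs with the GENCODE annotation of GRCm38. They are 9 of the 48794 rows of the count table. They were selected on their CPM (counts scaled to library size) in these same 3 groups, so their differences between groups are a description, without a test. RNA was sequenced from 18 libraries of BMDMs of male C57BL/6 mice, whose age is not given in the sources used here. All cells had matured for 7 days in recombinant human M-CSF at 50 ng/mL, and all were then kept for 24 h in M-CSF at 10 ng/mL. The Control group received nothing else, the IL4_IL13 group received IL-4 and IL-13 at 10 ng/mL each, and the IL4_IL13_TNFa group received the same with TNFa at 10 ng/mL. Each group had 6 libraries. No group received TNFa alone, and nothing in the labels says whether libraries came from separate animals or cultures, so each error and p-value describes variation among these libraries alone, part of which may be technical. Same-numbered libraries of different groups deviated together (r of 0.128 to 0.673 in 18 pairs), and the main fit did not use these numbers.

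Polycomb repressive complex 2 (PRC2) places methyl groups on lysine 27 of histone H3 through EZH2 or its relative EZH1, held with EED and SUZ12. Canonical Polycomb repressive complex 1 (PRC1) reads that mark through chromobox proteins such as CBX2, CBX6, CBX7 and CBX8 and ubiquitinates histone H2A through RING1 or RNF2. CBX1, CBX3 and CBX5 are the heterochromatin protein 1 (HP1) proteins beta, gamma and alpha, which bind methylated lysine 9 of histone H3. KDM6B, also called JMJD3, removes methyl groups from lysine 27 and is known as an inducible gene in macrophages, where it has been linked to Irf4 and type 2 activation. EZH2 is also known for higher expression in dividing cells.

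Promoter sequences, from 250 bases before to 50 bases after a start site, were held in RefSeq (GRCm38.p6) for 7 of the 9 genes. These genes had 9 promoters between them. No promoter of Cbx2 or Kdm6b was in the set used, so neither gene was searched. Promoters are shown for the 4 members with a match to letters bound by E2F factors and for Cbx5, which has none of the forms searched. Those letters (TTCCCGC as one form, TTGGCGC as another, and also TTCGCGC and the form TTGCCGC, on either strand) are in capitals. Other E2F forms were not searched, so a promoter with no match may still hold them. Such letters occurred in 9.57% of 32851 mouse promoters of the same length, and in a promoter of 4 members, Ezh2, Cbx3, Cbx1 and Cbx6. The Ezh2 match lay at position 5 counted from the start site, and the Cbx3, Cbx1 and Cbx6 matches at -167, -79 and -119. These promoters lie at chr6:47594981-47595280 on the minus strand (Ezh2), chr6:51470366-51470665 on the plus strand (Cbx3, the first of its starts), chr11:96788885-96789184 on the plus strand (Cbx1), chr15:79834284-79834583 on the minus strand (Cbx6) and chr15:103239803-103240102 on the minus strand (Cbx5, the first of its starts, with no match).
Ezh2: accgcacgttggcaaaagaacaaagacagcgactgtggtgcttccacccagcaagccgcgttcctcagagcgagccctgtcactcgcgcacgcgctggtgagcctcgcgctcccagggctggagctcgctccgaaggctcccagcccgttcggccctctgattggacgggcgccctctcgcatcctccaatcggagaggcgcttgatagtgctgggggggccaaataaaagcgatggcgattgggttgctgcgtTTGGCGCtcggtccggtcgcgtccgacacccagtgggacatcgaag
Cbx3: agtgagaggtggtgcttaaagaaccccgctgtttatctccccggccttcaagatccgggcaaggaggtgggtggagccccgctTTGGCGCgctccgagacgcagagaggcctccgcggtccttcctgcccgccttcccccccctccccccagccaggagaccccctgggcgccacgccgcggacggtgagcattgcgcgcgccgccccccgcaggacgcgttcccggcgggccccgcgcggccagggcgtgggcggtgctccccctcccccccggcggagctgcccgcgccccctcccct
Cbx1: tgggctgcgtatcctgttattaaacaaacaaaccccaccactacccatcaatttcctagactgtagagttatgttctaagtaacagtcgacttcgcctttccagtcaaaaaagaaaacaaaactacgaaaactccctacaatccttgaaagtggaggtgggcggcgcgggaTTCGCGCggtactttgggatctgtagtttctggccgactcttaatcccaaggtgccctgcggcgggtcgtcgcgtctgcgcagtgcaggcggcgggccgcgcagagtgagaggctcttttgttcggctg
Cbx6: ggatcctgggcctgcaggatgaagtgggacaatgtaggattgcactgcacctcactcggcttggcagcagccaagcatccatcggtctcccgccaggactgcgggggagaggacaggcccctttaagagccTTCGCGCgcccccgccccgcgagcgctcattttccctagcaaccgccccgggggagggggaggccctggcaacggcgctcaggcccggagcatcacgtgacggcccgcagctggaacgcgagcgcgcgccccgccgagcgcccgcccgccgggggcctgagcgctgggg
Cbx5: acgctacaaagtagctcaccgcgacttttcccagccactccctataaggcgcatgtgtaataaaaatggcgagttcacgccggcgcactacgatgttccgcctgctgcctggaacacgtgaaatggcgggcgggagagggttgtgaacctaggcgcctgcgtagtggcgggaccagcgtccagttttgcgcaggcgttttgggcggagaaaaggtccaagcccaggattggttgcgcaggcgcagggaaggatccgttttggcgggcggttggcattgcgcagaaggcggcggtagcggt
Other letters were searched in the same windows on both strands. TTTGAA, part of the cell cycle homology region, occurred in 17.9% of all promoters and, among the members, in that of Cbx7. The NF-kB letters GGGNNTTCC (5.82% of all promoters) and the STAT6 palindrome (6.95%) occurred in none of the 9 windows. Those windows did not include Cbx2 or Kdm6b. A match is a run of letters, not a bound site.

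Libraries held 14793404 to 20056125 counts, and the members had from 58 (Cbx8) to 5140 (Cbx5) counts in a library. All 9 passed the filter on low counts that left 13177 genes to test. The cells carried macrophage markers (a summed CPM of 8 markers of 14214 to 25287 in Control, 8272 to 10126 in IL4_IL13 and 8446 to 9288 in IL4_IL13_TNFa), while the summed markers of neutrophils, B cells, T and NK cells, mast cells and erythroid cells stayed at or under 3.20 CPM in every library, with Ly6g, Cd3d and the hemoglobin genes Hbb-bs and Hba-a1 at 0 in at least 1 group. The summed level of 6 dendritic cell markers was 1.26 to 3.64 CPM in Control, 2.77 to 5.68 in IL4_IL13 and 34.9 to 37.9 in IL4_IL13_TNFa. Only 2 of these 6 markers passed the filter, and those 2 went in opposite directions in each comparison. Xcr1 was at 0 in IL4_IL13_TNFa, so that sum does not show a rise of the markers as a set. The 8 stromal markers summed to 18.9 to 606 CPM. The part of these marker differences in the results was not tested. One library stood apart. In Control replicate 1 the summed CPM of 23 proliferation genes was 5154, against 1297 to 2303 in the other controls, the stromal sum was 18.9 against 101.5 to 606, and the macrophage sum was 14214 against 21082 to 25287. IL4_IL13 replicate 1 lay on the same side of its own group in each sum. Its proliferation sum was 5114 against 2854 to 4221 in the other IL4_IL13 libraries. Its stromal sum was 55.9 against 92.4 to 521, and its macrophage sum 8272 against 8864 to 10126. It stayed in where Control replicate 1 alone was left out. Several values that rest on Control replicate 1, but not all, are given with and without that library.

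**Figure D1:**
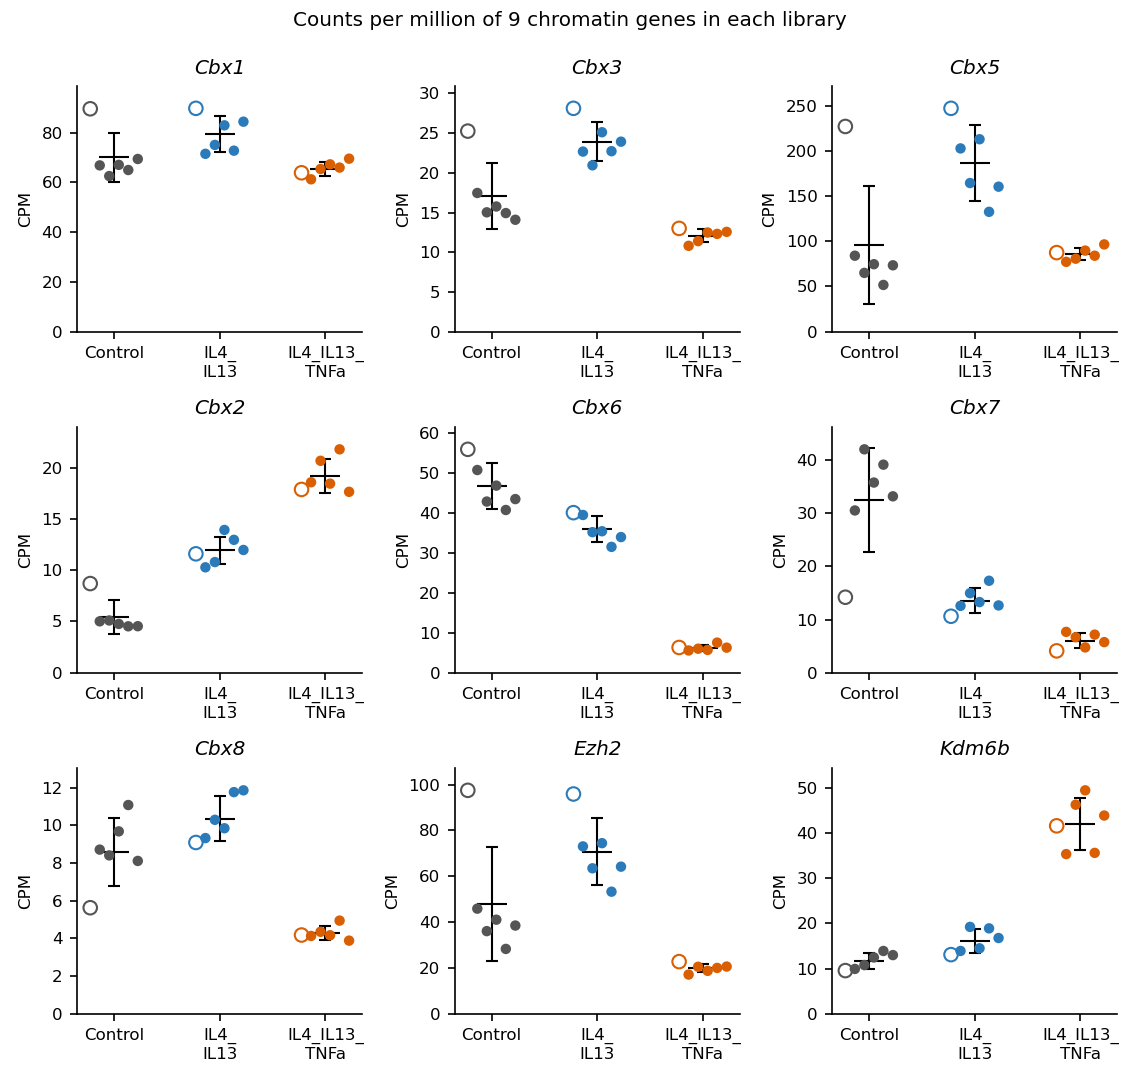
CPM (vertical axes, each from 0) of the 9 genes in each library of the 3 groups (horizontal axes); points are libraries, open circles are those numbered 1, and bars are the mean and SD of 6 libraries. Cbx2 and Kdm6b were highest in IL4_IL13_TNFa, and Cbx3, Cbx6, Cbx7, Cbx8 and Ezh2 were lowest there. Cbx1 and Cbx5 overlapped between IL4_IL13_TNFa and Control. Control replicate 1 lay above the other controls for Cbx1, Cbx3, Cbx5, Cbx2, Cbx6 and Ezh2 and below them for Cbx7, Cbx8 and Kdm6b.

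In IL4_IL13 against Control 2 of the 9 members did not overlap between groups, Cbx2 above and Cbx6 below. Of all tested genes 26.7% did not overlap (12.5% above and 14.2% below). Against the controls other than replicate 1, Cbx1, Cbx3, Cbx5 and Ezh2 also lay above and Cbx7 below, while Cbx8 and Kdm6b overlapped. The share of all genes was not computed without that library. With TNFa added to IL4_IL13 all 9 did not overlap, with Cbx2 and Kdm6b above and the other 7 below, where 44.9% of all genes did not overlap (23.3% above and 21.6% below). In the 3 cytokines against Control 7 did not overlap, with Cbx2 and Kdm6b above, 5 below and Cbx1 and Cbx5 overlapping, where 51.2% of all genes did not overlap (26.1% above and 25.1% below). The members were selected on these values, so nothing is read from these counts. Scaling by library totals turned none of the 27 differences. The 3 comparisons share libraries and are not independent.

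Among the HP1 genes, Cbx5 (HP1 alpha) differed most. It measured 227, 84.1, 65.0, 74.6, 51.7 and 73.4 CPM in Control replicates 1 to 6, 247, 203, 164, 213, 133 and 160 CPM in IL4_IL13, and 87.5, 77.2, 80.8, 89.7, 84.0 and 96.6 CPM in IL4_IL13_TNFa. Every IL4_IL13 library lay above every IL4_IL13_TNFa library and above 5 of the 6 controls. The log2 fold change of IL4_IL13 against Control was 0.96 ± 0.27 (SE), and 1.42 without Control replicate 1. With TNFa added it was -1.12 ± 0.28 against IL4_IL13. Against Control the value for the 3 cytokines was -0.16, and it turned to 0.30 without Control replicate 1 and to 0.01 with the replicate number as a block, with libraries that overlapped. In bulk RNA, fewer cells of a type and less RNA per cell cannot be told apart.

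Cbx3 (HP1 gamma) measured 14.1 to 25.3 CPM in Control (median 15.4), 20.9 to 28.1 in IL4_IL13 and 10.8 to 13.0 in IL4_IL13_TNFa. Its IL4_IL13 and Control libraries overlapped through Control replicate 1 alone, at 25.3 CPM, and all IL4_IL13_TNFa libraries lay below both other groups. The log2 fold change was 0.48 ± 0.12 for IL4_IL13 against Control (0.63 without Control replicate 1). It was -0.98 ± 0.12 for added TNFa and -0.50 for the 3 cytokines against Control (-0.35 without Control replicate 1). The 5 Cbx3 pseudogene rows held 44 counts in all libraries together, against 5544 for Cbx3. Cbx1 (HP1 beta) varied least. It was 70.1 ± 9.83 CPM (SD, n = 6) in Control, 79.4 ± 7.36 in IL4_IL13 and 65.5 ± 2.84 in IL4_IL13_TNFa. Its log2 fold changes were 0.18, -0.28 and -0.10 in the 3 comparisons. Those against Control were 0.27 and -0.01 without Control replicate 1.

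The PRC1 chromobox genes differed in opposite directions. Cbx7 and Cbx6 were lower under the cytokines, Cbx2 was higher and Cbx8 was lower after TNFa only. Cbx7 measured 14.2, 30.6, 42.1, 35.8, 39.2 and 33.2 CPM in Control replicates 1 to 6, 10.6 to 17.3 CPM in IL4_IL13 and 4.11 to 7.68 CPM in IL4_IL13_TNFa. The IL4_IL13 libraries lay below the controls other than replicate 1, and all IL4_IL13_TNFa libraries lay below all others. The log2 fold change was -1.26 ± 0.21 for IL4_IL13 against Control (-1.41 without Control replicate 1), -1.17 ± 0.22 for added TNFa and -2.43 ± 0.22 for the 3 cytokines against Control. The last 100 exon bases of Cbx7 overlap Apobec3 on the opposite strand, which held 24865 counts against 5501 for Cbx7. The library kit marked strand, but the setting used in counting is not given in the sources used here.

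Cbx6 differed most between the groups with and without TNFa. It measured 40.7 to 55.8 CPM in Control, 31.5 to 40.003 in IL4_IL13 and 5.55, 5.68, 5.98, 6.25, 6.30 and 7.51 CPM in IL4_IL13_TNFa. No library of a group reached the next group. Cbx6 shares 563 exon bases with Npcd on the same strand, which had 0 counts. The log2 fold change was -0.38 ± 0.08 for IL4_IL13 against Control, -2.53 ± 0.09 for added TNFa and -2.91 ± 0.09 against Control. Cbx8 measured 5.62 to 11.1 CPM in Control, 9.09 to 11.9 in IL4_IL13 and 3.88 to 4.94 in IL4_IL13_TNFa. It overlapped between the first pair of groups and lay below both in the third, with log2 fold changes of 0.27, -1.28 ± 0.13 and -1.01. Without Control replicate 1 the values against Control were 0.17 and -1.10.

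Cbx2 went the other way. It measured 8.69, 5.004, 5.09, 4.75, 4.52 and 4.53 CPM in Control replicates 1 to 6, 11.6, 10.3, 10.8, 13.9, 13.0 and 12.0 CPM in IL4_IL13, and 17.9, 18.6, 20.7, 18.4, 21.8 and 17.6 CPM in IL4_IL13_TNFa. The 3 groups did not overlap, with IL4_IL13 in the middle. The log2 fold change was 1.13 ± 0.14 for IL4_IL13 against Control (1.32 without Control replicate 1), 0.69 ± 0.13 for added TNFa and 1.81 ± 0.14 for the 3 cytokines against Control. Cbx2 and Cbx8 lie 5034 bases apart on chromosome 11, on opposite strands (GRCm38, Cbx2 at chr11:119022962-119031270, Cbx8 at chr11:119036305-119040969). The ratio of Cbx2 to Cbx8 CPM was 0.697 ± 0.421 (SD, n = 6) in Control, 1.16 ± 0.155 in IL4_IL13 and 4.49 ± 0.160 in IL4_IL13_TNFa; without Control replicate 1, which measured 1.54, the controls lay between 0.408 and 0.606.

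Per kilobase of exon, the 4 PRC1 chromobox members Cbx2, Cbx6, Cbx7 and Cbx8 summed to 13.0 ± 1.14 CPM per kb (SD, n = 6) in Control, 11.1 ± 0.485 in IL4_IL13 and 7.18 ± 0.669 in IL4_IL13_TNFa. Within that sum Cbx2 took 10.1% ± 4.17 in Control, 25.2% ± 2.19 in IL4_IL13 and 62.7% ± 1.45 in IL4_IL13_TNFa. Cbx7 took 37.8%, 18.8% and 12.9% in the same order, Cbx6 34.3%, 30.6% and 8.18%, and Cbx8 17.8%, 25.4% and 16.2%. Control replicate 1 was the control with the highest Cbx2 share, 18.5% against 7.61% to 9.02% in the others. In IL4_IL13_TNFa the lowest Cbx2 share was 60.6%, above the highest share of any of the other 3 genes, 17.3% for Cbx8.

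**Figure D2:**
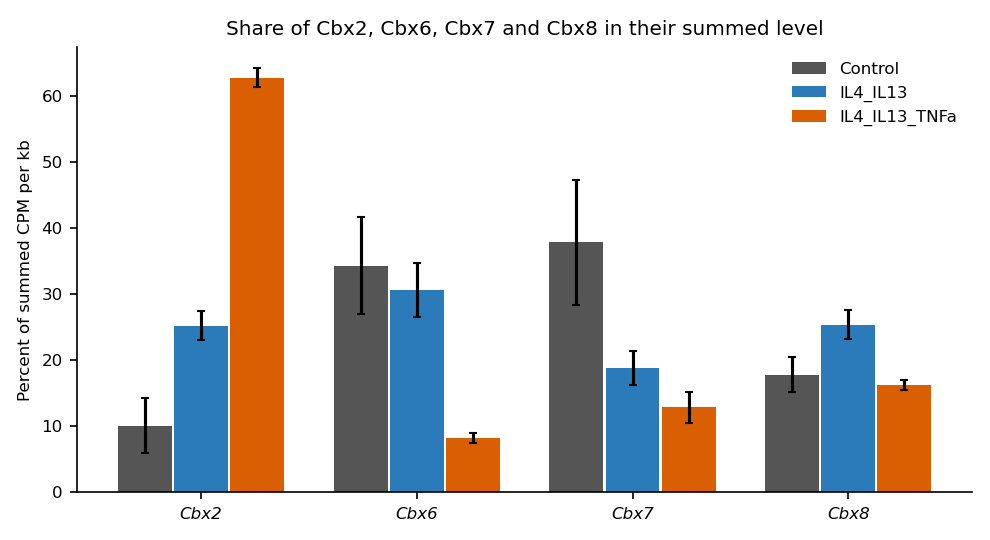
Percent of the summed CPM per kilobase of Cbx2, Cbx6, Cbx7 and Cbx8 taken by each gene (vertical axis, from 0) in the 3 groups; bars are means of 6 libraries and error bars SD. Cbx2 took 10.1%, 25.2% and 62.7% in Control, IL4_IL13 and IL4_IL13_TNFa, while Cbx7 went from 37.8% to 12.9%.

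Ezh2 was highest in the same libraries in which proliferation genes were high. It measured 97.5, 45.9, 36.0, 41.0, 28.3 and 38.5 CPM in Control replicates 1 to 6, 95.9, 73.0, 63.5, 74.4, 53.3 and 64.2 CPM in IL4_IL13, and 22.7, 17.1, 20.5, 18.7, 19.97 and 20.6 CPM in IL4_IL13_TNFa. All IL4_IL13_TNFa libraries lay below all others, while the first pair of groups overlapped through Control replicate 1. Its log2 fold change was 0.56 ± 0.22 for IL4_IL13 against Control, and 0.90 without Control replicate 1, -1.83 ± 0.24 for added TNFa and -1.27 for the 3 cytokines against Control (-0.93 without Control replicate 1). Eed, whose product binds the mark within PRC2, did not pass the test in any comparison (60.0 to 65.9 CPM on average), with a log2 fold change of 0.14 for added TNFa that passed with the replicate block (edgeR adjusted p = 0.0157 against 0.0639 without it).

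The summed CPM of 23 proliferation genes was 1297 to 5154 in Control, 2854 to 5114 in IL4_IL13 and 656 to 928 in IL4_IL13_TNFa. Over all 18 libraries, which share their group and preparation, Pearson's r between log2 CPM of the member and of that sum was 0.996 for Ezh2, 0.968 for Cbx3, 0.840 for Cbx6, 0.823 for Cbx1 and 0.785 for Cbx5, and -0.784 for Kdm6b. As deviations from the group means, leaving out the libraries numbered 1, it was 0.944 for Ezh2 and 0.965 for Cbx5 (15 libraries). It was 0.584 for Cbx6, 0.564 for Cbx3, 0.501 for Cbx1, -0.0154 for Cbx2 and -0.3625 for Kdm6b. Per 1000 CPM of proliferation genes Ezh2 measured 20.3 ± 1.14 in Control, 18.3 ± 0.432 in IL4_IL13 and 24.9 ± 1.94 in IL4_IL13_TNFa, while Cbx5 measured 38.8 ± 2.83, 48.2 ± 2.09 and 107.5 ± 7.08. Cbx7 and Cbx8 went the opposite way within groups, with r of -0.902 and -0.877. Without the libraries numbered 1 these were -0.719 and -0.660, while over all 18 libraries r was 0.410 for Cbx7 and 0.729 for Cbx8. These are descriptions and the part of proliferation in any of these differences was not tested.

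**Figure D3:**
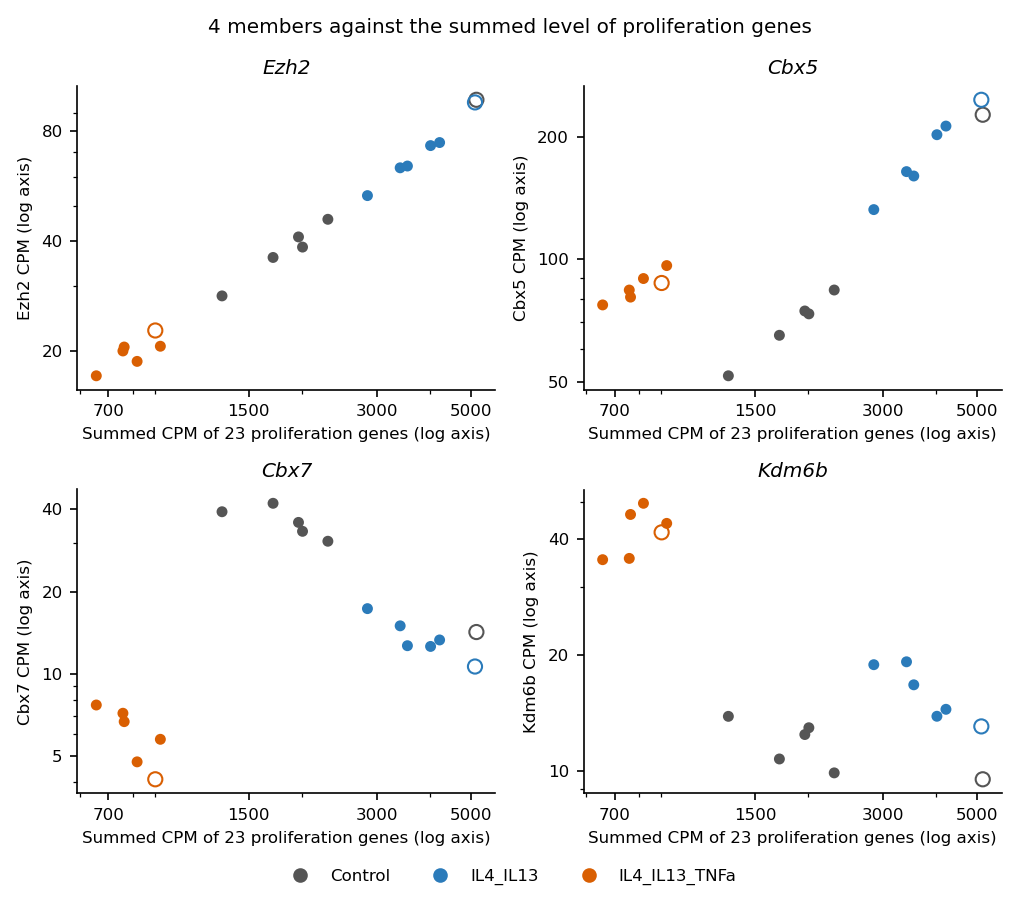
CPM of Ezh2, Cbx5, Cbx7 and Kdm6b (vertical log axes) against the summed CPM of 23 proliferation genes (horizontal log axes) in the 18 libraries, with colours for the groups and open circles for libraries numbered 1. Ezh2 followed the sum across all groups (r of 0.996), and Cbx5 lay higher for its sum in IL4_IL13_TNFa.

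Kdm6b, the inducible demethylase gene, was higher with TNFa. It measured 9.54, 9.91, 10.8, 12.5, 13.9 and 13.0 CPM in Control replicates 1 to 6, 13.1, 13.9, 19.2, 14.5, 18.9 and 16.8 CPM in IL4_IL13, and 41.6, 35.4, 46.3, 49.5, 35.6 and 43.9 CPM in IL4_IL13_TNFa. The first pair of groups overlapped and the third lay above both. Its log2 fold change was 0.47 ± 0.12 for IL4_IL13 against Control, 1.39 ± 0.12 for added TNFa and 1.86 ± 0.12 for the 3 cytokines against Control. The ratio of Kdm6b to Ezh2 CPM was 0.291 ± 0.131 in Control, 0.240 ± 0.0811 in IL4_IL13 and 2.12 ± 0.315 in IL4_IL13_TNFa. Control replicate 1 measured 0.098, and the other controls 0.216 to 0.491. Its relatives, Kdm6a and its Y-linked copy Uty, moved the other way. Kdm6a fell from 58.7 ± 6.0 CPM in Control to 47.7 ± 5.5 and 39.9 ± 2.8, with log2 fold changes of -0.30 ± 0.08, -0.25 ± 0.08 and -0.55 ± 0.08 (edgeR adjusted p = 0.00435, 0.0127 and 6.95e-06). Uty had log2 fold changes of -0.26, -0.22 and -0.48 (edgeR adjusted p = 0.00564, 0.0183 and 1.24e-05), of which the value for added TNFa was not past the threshold without IL4_IL13_TNFa replicate 6 (0.0518). With no filter on low counts neither of its first 2 values passed (0.0644 and 0.0591).

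Irf4, which encodes a factor that KDM6B has been linked to in type 2 activation, rose under IL-4 and IL-13 from 9.23 ± 4.2 to 185 ± 36 CPM (log2 fold change 4.33 ± 0.29, edgeR adjusted p = 4.71e-10). Its level was 178 ± 16 CPM with TNFa, a log2 fold change of -0.05 ± 0.24 against IL4_IL13 (edgeR adjusted p = 0.869). All 4 genes of the list linked to Kdm6b in type 2 activation rose under IL-4 and IL-13, where 29.3% of all genes rose. With added TNFa Arg1, which encodes arginase, fell from 646 ± 219 to 85.1 ± 20.9 CPM (-2.92 ± 0.23, 2.86e-09) and Retnla, which encodes a secreted protein of type 2 responses, fell by 4.95 ± 0.33 on the log2 scale (2.6e-10), while Chil3, a chitinase-like gene, had a log2 fold change of -0.04 (0.827).

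Per kilobase the order of the members changed between groups. In Control the order was Cbx1 at 16.4 CPM per kb, then Cbx5, Ezh2, Cbx7, Cbx6, Cbx3, Cbx8, Kdm6b and Cbx2 at 1.28, and every neighbour overlapped. In IL4_IL13 Cbx5 led at 20.7, followed by Cbx1 at 18.6 and Ezh2 at 10.6, with no overlap between Cbx1 and Ezh2 or between Ezh2 and Cbx3. In IL4_IL13_TNFa the order was Cbx1 at 15.3, Cbx5 at 9.55, Kdm6b at 6.05, Cbx2 at 4.50, Ezh2 at 2.98, Cbx3 at 2.02, Cbx8 at 1.16, Cbx7 at 0.929 and Cbx6 at 0.586, and Kdm6b with Cbx2, Cbx8 with Cbx7 and Cbx7 with Cbx6 were the neighbours that overlapped.

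Over the 18 libraries, the genes most like each member by Pearson's r of log2 CPM (n = 18) were ranked over all genes tested. For Ezh2 the first 3 were Incenp (r of 0.998), Smc2 and Clspn, and for Cbx5 Uhrf1 (0.994), Mcm4 and Cdca7l. Cbx3 was nearest to Zfp367 (0.984), Lmnb1 and Mad2l1, and Cbx1 to Slbp (0.953), E2f1 and Rpa2. Cbx2 was nearest to Slc25a5 (0.990), Cluh and Atp5b. Cbx6 was nearest to Rab31 (0.994), Dab2 and Tmem64, Cbx7 to Vps39 (0.989), Cdkn1b and Foxo4, Cbx8 to Rnf130 (0.974), Adamts10 and Cnksr3, and Kdm6b to Atp6v0c (0.988) and Anxa3. As deviations from the group means these r values lay between 0.548 for Dab2 with Cbx6 and 0.990 for Incenp with Ezh2.

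The other genes of the Polycomb, H3K27 and H3K9 pathways, 87 listed and 83 tested, were tested with edgeR across all genes. In IL4_IL13 against Control 16 rose and 35 fell where 59% of all genes passed the test (29.3% higher and 29.7% lower). Without Control replicate 1 the counts were 29 and 38, where 4741 of 13344 genes rose and 4340 fell. With TNFa added to IL4_IL13, 14 rose and 37 fell, where 59.6% of all genes passed (30.3% higher and 29.3% lower). In the 3 cytokines against Control 13 rose and 38 fell, where 73.8% passed (36.4% higher and 37.3% lower). Without Control replicate 1 the counts were 23 and 41, where 5209 of 13344 genes rose and 5162 fell. Their median log2 fold changes were -0.11, -0.12 and -0.27, against -0.0024, 0.003 and -0.0221 for all genes. Scaling by library totals moved the median of all genes to -0.20 and -0.27 in the TNFa comparisons, and the counts there were 7 up and 54 down, and 6 up and 57 down, with 27.5% and 32.7% of all called genes higher in place of 50.9% and 49.4%.

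**Figure D4:**
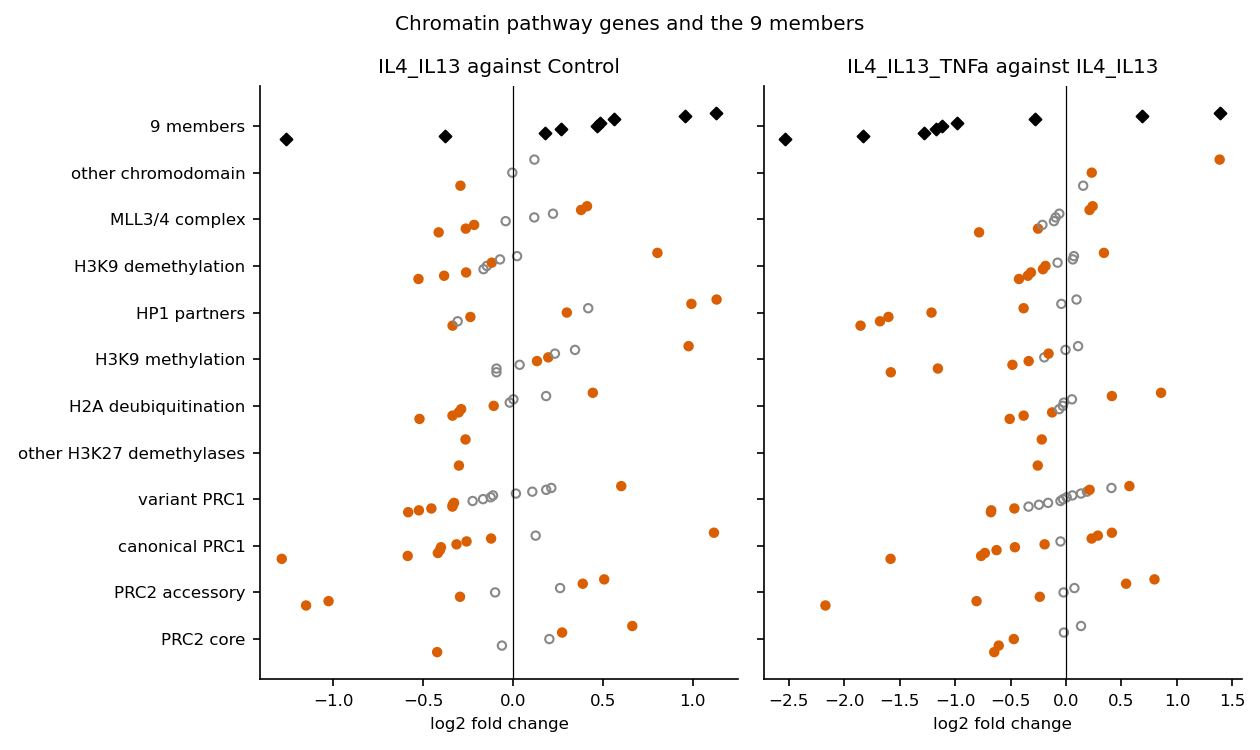
Log2 fold change (horizontal axes) of the tested pathway genes by list and of the 9 members (diamonds) in 2 comparisons; filled circles passed the test at an adjusted p of 0.05, open circles did not, and members were not tested. In IL4_IL13 against Control 8 of 10 canonical PRC1 genes fell, where 29.7% of all genes did. With TNFa 5 of 7 HP1 partner genes fell, where 29.3% of all genes did.

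Canonical PRC1 genes fell in the main. In IL4_IL13 against Control 8 of 10 fell and 1 rose. With TNFa added 6 fell and 3 rose, and with the 3 cytokines against Control 6 fell and 2 rose. Of all genes 29.7%, 29.3% and 37.3% fell in these comparisons, and 29.3%, 30.3% and 36.4% rose. Pcgf2, a subunit that sets the type of PRC1, fell from 16.2 ± 1.1 to 6.65 ± 0.81 CPM under IL-4 and IL-13 (log2 fold change -1.29 ± 0.11, edgeR adjusted p = 7.99e-09), and Scmh1, a further subunit gene, fell by 0.76 on the log2 scale with added TNFa (1.31e-09). Bmi1 (also called Pcgf4) rose with TNFa (0.41 ± 0.06, 1.27e-05) and Rnf2, a ubiquitin ligase gene, fell under IL-4 and IL-13 (-0.42 ± 0.07, 5.67e-05). The fall of Rnf2 with added TNFa (-0.19, 0.0255) was not past the threshold without IL4_IL13_TNFa replicate 3 (0.0635) or with no filter on low counts (0.087). Ring1, the other ligase gene, fell under IL-4 and IL-13 (-0.26, edgeR adjusted p = 0.0177) and rose with added TNFa (0.29, 0.00897). The fall was lost with no filter (0.0961) or only the 2 groups compared (0.0505), and the rise with library totals (0.433). Scaling by library totals left 7 of the 10 canonical PRC1 genes lower and 1 higher with added TNFa, where 6089 of 13177 genes fell and 2313 rose.

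Of 5 tested PRC2 core genes 2 rose and 1 fell under IL-4 and IL-13, where 29.3% and 29.7% of all genes did. With added TNFa 3 of the 5 fell, where 29.3% of all genes did. Of these, Rbbp4 in the first comparison (0.27, edgeR adjusted p = 0.0413) was lost without any one of Control replicates 2 to 6 or IL4_IL13 replicates 1, 2, 4 or 6 (from 0.0619 to 0.1), with library totals (0.0754), with no filter (0.0828) or with only the 2 groups compared (0.0707). Rbbp7 with added TNFa (-0.47, 0.0397) was lost without any one of IL4_IL13 replicates 1, 2, 4 or 6 or any IL4_IL13_TNFa library (from 0.0524 to 0.0889) and with no filter (0.172). Ezh1, the relative of Ezh2, fell under IL-4 and IL-13 (94.995 ± 14 to 70.9 ± 8.0 CPM, log2 fold change -0.42 ± 0.09, edgeR adjusted p = 0.000847) and showed no difference past the threshold with added TNFa (-0.02, 0.878). Suz12 fell with added TNFa (-0.65 ± 0.11, 5.51e-05), and in IL4_IL13 against Control its 0.20 was not past the threshold (0.12) but passed with the replicate block (0.0183) and without Control replicate 1 (9.88e-05). Accessory genes split. Jarid2 and Aebp2, subunits of one form of PRC2, rose with added TNFa by 0.80 ± 0.05 and 0.54 ± 0.04 (2.78e-10 and 3.56e-09), while Phf1 and Phf19 fell by 0.81 and 2.17 (0.000829 and 4.73e-06). Epop fell under IL-4 and IL-13 (-1.03 ± 0.14, 4.08e-06).

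HP1 partner genes fell with TNFa. Of 7, 5 fell with added TNFa and 0 rose, where 29.3% of all genes fell and 30.3% rose. The median of the 7 log2 fold changes was -1.21 against 0.003 for all genes. The 23 proliferation genes all fell there, with a median of -2.79. The part of proliferation in the HP1 partner falls was not tested. Lbr, which encodes an inner nuclear membrane protein that binds HP1, fell from 81.6 ± 11 to 22.6 ± 1.7 CPM (-1.85 ± 0.10, edgeR adjusted p = 1.38e-11). Uhrf1, a gene of DNA methylation maintenance, fell by 1.60 (0.00345), and Chaf1a, a chromatin assembly subunit, by 1.68 (0.000185). Under IL-4 and IL-13 Uhrf1 rose by 1.13 ± 0.42 (0.0275), a value not past the threshold when 1 of 6 libraries was left out (Control replicates 2, 3, 4 or 6 or IL4_IL13 replicates 1 or 4, from 0.0508 to 0.0643), with no filter (0.0988) or with only the 2 groups compared (0.0602). Of the H3K9 methyltransferase genes, 5 of 8 fell with added TNFa, among them Suv39h1 by 1.15 and Suv39h2 by 1.58 (7.45e-06 and 0.00135), and 3 rose under IL-4 and IL-13 (5 with the replicate block, and 5 without Control replicate 1). Of all genes 29.3% rose under IL-4 and IL-13. With the block it was 4403 of 13177 genes, and without Control replicate 1 it was 4741 of 13344.

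The remaining lists went both ways. Of all genes 29.3% rose and 29.7% fell under IL-4 and IL-13, and 30.3% rose and 29.3% fell with added TNFa. Of 13177 genes 4403 rose and 4229 fell under IL-4 and IL-13 with the replicate block, and 3467 and 4381 with library totals. Without Control replicate 1 it was 4741 and 4340 of 13344 genes. With added TNFa 4338 rose and 4178 fell with the block, and 2313 and 6089 with library totals. Of 15 variant PRC1 genes 1 rose and 6 fell under IL-4 and IL-13 (2 and 7 with the replicate block, 3 and 7 without Control replicate 1), and 2 rose and 3 fell with added TNFa (4 and 4 with the block, 1 and 7 with library totals). Fbrs, a subunit gene of variant PRC1, fell by 0.52 ± 0.09 and then rose by 0.57 ± 0.09 (edgeR adjusted p = 5.12e-05 and 1.41e-05), and Kdm2b, whose product brings PRC1 to unmethylated CpG sites, fell by 0.68 ± 0.07 with added TNFa (2.12e-07). Of 9 tested genes of histone H2A deubiquitination 1 rose and 5 fell (2 and 5 with the block and without Control replicate 1), and then 2 rose and 3 fell (1 and 6 with library totals), with Asxl1 lower by 0.51 ± 0.05 after TNFa (7.12e-08). Of 8 tested genes of the MLL3/4 complex 2 rose and 3 fell (4 and 3 with the block and without Control replicate 1), and then 2 rose and 2 fell (0 and 6 with library totals). Of 9 tested H3K9 demethylase genes 1 rose and 4 fell (1 and 7 with library totals), and then 1 rose and 5 fell. Kdm7a, an H3K9 and H3K27 demethylase gene, rose under IL-4 and IL-13 (121 ± 17 to 211 ± 19 CPM, 0.80 ± 0.10, 1.31e-06) and fell with added TNFa (-0.42 ± 0.10, 0.000957). Usp16, a deubiquitinase gene for histone H2A, rose with added TNFa (0.86 ± 0.06, 2.42e-10), and Cdyl2, a chromodomain gene, by 1.39 ± 0.10 (6.93e-10).

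Loci known as Polycomb targets were mostly at low levels, and 6 of 41 listed genes passed the filter. Cdkn2b, an inhibitor of the cell cycle at the same locus as Cdkn2a, rose from 2.62 ± 0.88 to 35.1 ± 4.6 CPM with added TNFa (log2 fold change 3.75 ± 0.18, edgeR adjusted p = 1.76e-12). Cdkn2a had log2 fold changes of 0.05, 0.10 and 0.15 that did not pass the test. Hoxb4 fell under IL-4 and IL-13 (-0.83 ± 0.14, 6.27e-05).

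Of the 23 proliferation genes 16 rose and none fell in IL4_IL13 against Control, where 29.3% of all genes rose. All 23 rose there with the replicate block and without Control replicate 1. With the block 4403 of 13177 genes rose and 4229 fell. Without Control replicate 1 it was 4741 and 4340 of 13344. With added TNFa all 23 fell, where 29.3% of all genes fell. Mki67, a gene of dividing cells, fell from 739 ± 190 to 65.5 ± 18 CPM with added TNFa (-3.49 ± 0.27, edgeR adjusted p = 2.25e-09), and its 0.48 in IL4_IL13 against Control (0.0977) passed with the block (0.000364). Of 18 E2F and DREAM genes 6 rose and 1 fell under IL-4 and IL-13, and 11 rose and 2 fell with the block and without Control replicate 1. With added TNFa 2 of the 18 rose and 12 fell.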

How the data were processed

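Poly(A) RNA was sequenced from 18 libraries of 3 groups. The authors deposited raw whole-number counts per Ensembl gene, per the file's whole-number values; the submitters' processing notes name the builds GRCm38 and mm10 and list featureCounts 1.5.1 and RSEM 1.3.0 beside STAR (2.5.2b and 2.5.2), without saying which step made the counts, and the strand setting is not given in the sources used here. Symbols came from GENCODE for 48434 of 48794 rows, and the 360 others kept their IDs. All columns matched a sample. Counts were fitted in R 4.3.3 with edgeR 4.0.16 (quasi-likelihood, robust, TMM, minimum count 10, all 18 libraries, group as the only term), with Benjamini-Hochberg adjustment over 13177 genes and a threshold of 0.05; the fit was tested on simulated data. CPM uses TMM library sizes and log2 CPM a prior count of 2; SE was obtained by dividing a log2 fold change by the root of its F value. Alternatives used limma 3.58.1, DESeq2 1.42.0, other scalings and filters (5 CPM in 6 libraries), a replicate block and libraries left out. Same-numbered libraries deviated together (r of 0.128 to 0.673 in 18 pairs), and the labels do not say what a number marks. The main fit, with its SE and p-values, did not use the numbers, and only the replicate block did. With the block 8632 genes passed in IL4_IL13 against Control, in place of 7774. Libraries of a group differed beyond sampling noise (lowest chi-square per degree of freedom 2.59 over 45 pairs). Named genes were all members, up to 2 genes per direction, list and comparison with the largest change past the threshold, 11 set genes, and the 3 most like each member. Some genes that this rule named are not reported here. Members, gene lists and motifs were chosen with earlier results of these data known. Depth limits precision most where counts per library are lowest, as for Cbx8.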

Additional observations from a re-analysis of the deposited data

Results flagged for a closer look

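In all, 8 values were far from the others in their group, all in Control replicate 1, among 42 groups of 6 tested, where chance flags about 1 in 20. It measured 89.6 CPM for Cbx1, 25.3 for Cbx3, 227 for Cbx5, 8.69 for Cbx2 and 97.5 for Ezh2. Its ratio of Cbx2 to Cbx8 was 1.54 and of Cbx6 to Cbx7 3.93. Its summed CPM of proliferation genes was 5154. The mean of the other 5 controls was 66.2, 15.5, 69.8, 4.78 and 37.9 CPM for the same 5 genes. The cause was not tested.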

How the results depend on the processing

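Under 27 alternatives all but 1 of the 27 member differences kept their sign; the exception was Cbx5 in IL4_IL13_TNFa against Control, at -0.16, which was 0.027 with limma voom, 0.014 with the replicate block, 0.30 without the 3 libraries numbered 1 and -0.28 to 0.30 when 1 library was left out. Library totals moved values for added TNFa to -0.48 (Cbx1), -1.19 (Cbx3), 0.48 (Cbx2), -2.74 (Cbx6) and -1.48 (Cbx8), and for the 3 cytokines against Control to -0.34 (Cbx1), -0.75 (Cbx3), -3.16 (Cbx6), -1.26 (Cbx8) and 1.61 (Kdm6b). Pathway genes higher in IL4_IL13 against Control were 29 without the libraries numbered 1 and 11 to 29 when 1 library was left out, and those lower were 23 with no filter on low counts, with more genes tested. Without the libraries numbered 1, 4652 of 13260 genes were higher, and with no filter 3066 of 31497 genes were lower. With the 3 cytokines against Control the higher count was 23 without the libraries numbered 1, 12 to 23 when 1 library was left out, and 6 with library totals. Of all genes 5175 of 13260 were higher without the libraries numbered 1, and 3285 of 13177 with library totals. With added TNFa the higher count was 7 with library totals, where 2313 of 13177 genes were higher. With library totals, IL4_IL13_TNFa against Control reversed Fbrs (-0.20), Setdb1 (-0.057), Ring1 (-0.22), Phc2 (-0.14), Pcgf3 (-0.10) and Eed (-0.17), and Mcm3, at -0.07, was -0.21 to 0.57 when 1 library was left out, 0.57 without Control replicate 1 and 0.58 without the libraries numbered 1. The replicate block moved the call of Suz12, Suv39h1, Dnmt1, Phf2, Mki67, E2f7, Plk1 and Ccnb2 in IL4_IL13 against Control, of Eed and Pcgf3 with added TNFa and of Kmt2d, Mga and Mybl2 with the 3 cytokines against Control, and no other named call. With the block 24, 17 and 13 pathway genes were higher, where 4403, 4338 and 5046 of 13177 genes were. The causes were not tested, and the lowest counts limit Cbx8, Cbx7 and Cbx6 in IL4_IL13_TNFa.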
